A study of Homo sapiens with 66 samples.

Results

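The 9 genes described here are those of the MHC class II route of antigen presentation that were chosen by symbol: HLA-DRA, HLA-DRB1, HLA-DPA1, HLA-DPB1, HLA-DQB1, HLA-DMA, HLA-DMB, CD74 and CIITA. They are 9 of the 57992 gene identifiers in the count tables, and all 9 were found. RNA was sequenced from 11 acute myeloid leukemia (AML) cell lines, namely F-36P, NOMO-1, MV-4-11, OCI-AML2, MOLM-13, KASUMI-1, MONO-MAC-6, THP-1, OCI-AML3, HL-60 and NB-4. Each line was left in medium (untreated) or exposed for 24 hours to etoposide, a topoisomerase II poison, at a concentration set by the dose response of that line, so the dose differed between lines. There were 3 libraries per line and condition, 66 in all, and the RNA of each library came from 3 pooled wells. All are established lines grown alone, so no T cell or other partner of antigen presentation was in the wells, and only the medium of F-36P held granulocyte-macrophage colony-stimulating factor. The study discarded the etoposide-treated OCI-AML2 libraries for the quality of their raw reads; they are shown here beside the other lines but enter no value taken over several treated lines.

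MHC class II molecules are pairs of an alpha and a beta chain (DR, DP and DQ) that carry peptides from the endosome to the cell surface, where CD4+ T cells read them. The invariant chain, encoded by CD74, escorts the new pairs and blocks their groove, and the DM heterodimer (HLA-DMA with HLA-DMB) then swaps its remnant for a peptide. CIITA is the coactivator that the class II promoters need: it binds no DNA itself but is recruited by RFX, CREB and NF-Y proteins sitting on the conserved X and Y boxes. Class II is made constitutively by dendritic cells and B cells and by monocytes, interferon-gamma induces it elsewhere through CIITA, and leukemic blasts can lose it.

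On GRCh38 (gencode release 44), 7 of the genes lie within the MHC on chromosome 6, among them HLA-DRA at chr6:32439878-32445046 on the plus strand and HLA-DRB1 at chr6:32577902-32589848 on the minus strand. CD74 lies at chr5:150401637-150412969 on the minus strand and CIITA at chr16:10866222-10943021 on the plus strand. HLA-DPA1 and HLA-DPB1 overlap each other on opposite strands, HLA-DQB1 overlaps the antisense gene HLA-DQB1-AS1, and HLA-DMA and HLA-DMB overlap a readthrough gene on their own strand. HLA-DMA also overlaps BRD2 on the opposite strand, and both DP genes overlap RPL32P1, which shares the strand of HLA-DPB1. CIITA overlaps DEXI on the opposite strand and unnamed genes on both strands. An exon on the other strand covers 756 genes in full, and reads were counted for 484 of them. A count that ignored strand would leave such genes without reads. The counts used gencode release 25, where a covering exon may be absent, so this does not settle whether they were made by strand. Counts of HLA-DRB1 are uncertain where its reads also match its near copy HLA-DRB5, and alleles that differ from the reference genome can lose reads in any HLA gene, so levels of 1 HLA gene were compared between lines with that limit.

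The boxes that CIITA acts through can be read in the members' own promoters. The windows shown were taken from the RefSeq promoters (GRCh38.p14, 250 bases before to 50 after each start), which matched 7 of the 9 members by symbol; HLA-DRA and CIITA were not among them. They are shown because 3 of these members carry both boxes in that order. In each window the first run of capitals is the core of the X box (AG, any 2 bases, AC, any base, then GATG) and the second is the Y box, GATTGG.
HLA-DRB1, chr6:32589878-32589939, minus strand: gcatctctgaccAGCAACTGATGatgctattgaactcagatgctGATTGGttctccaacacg
HLA-DQB1, chr6:32666729-32666790, minus strand: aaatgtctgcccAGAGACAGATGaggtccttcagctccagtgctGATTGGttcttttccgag
HLA-DMA, chr6:32953160-32953222, minus strand: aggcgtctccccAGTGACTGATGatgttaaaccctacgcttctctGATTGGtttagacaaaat
The X box core begins at base -79 from the start in HLA-DRB1, -121 in HLA-DQB1 and -113 in HLA-DMA, and 21, 21 and 22 bases separate it from the Y box. Searched on both strands, the core was present in 0.817% and the Y box in 15.1% of 35116 promoters of this length, and the core followed by a Y box within 10 to 40 bases on the gene's strand in 5 of them (0.0142%). The core and the Y box do not overlap. Those 5 were HLA-DRB1, HLA-DQB1, HLA-DMA, HLA-DRB5 and CLEC12A. The core was chosen after the sequences had been read; a longer X box chosen first, CCT followed by the first 9 letters of the core, was in 0.236% of the promoters and, of the 7 members, in HLA-DMB. A match is a description of the letters and not evidence of binding.

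Reads on genes numbered 17997404 to 24101670 per library (median 20241014), and levels are given as CPM, reads scaled to a common library size with TMM factors. The labels call all lines AML: the myeloid marker CD33 stood at 66.5 to 147 CPM in the untreated lines, while F-36P also held erythroid markers (GATA1 253 CPM), OCI-AML2 the dendritic cell marker CLEC9A (32.8 CPM) and NOMO-1 the T cell marker CD3D (156 CPM). The B cell marker MS4A1, found in NOMO-1 at 2.68 CPM, was at 0 reads in the other 10 untreated lines. These are bulk samples, so fewer cells of a type and less RNA per cell cannot be told apart, and while the study's methods speak in general of biological replicates, the labels do not tie the libraries to separate cultures, so p-values may measure only the spread between these libraries. Values of untreated cells are scaled over the 33 untreated libraries, and values before and after etoposide over the 6 libraries of that line, so the same library can differ slightly between them.

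Before treatment the lines fell along a wide range of class II levels, from F-36P, which had the highest mean for all 9 members, to HL-60 and NB-4, which had almost none. HLA-DRA, the alpha chain of the DR pair, which hardly varies between people, measured 106, 122 and 129 CPM in the 3 untreated F-36P libraries and 39.8, 40.2 and 42.7 CPM in those of NOMO-1. It then stood at 12, 12.5 and 11.7 CPM in MV-4-11, at 9.46, 10.1 and 8.83 CPM in OCI-AML2 and at 9.25, 8.54 and 7.51 CPM in MOLM-13. A lower step held KASUMI-1 (4.56, 5.55 and 5.42 CPM) and MONO-MAC-6 (4.12, 5.54 and 4.20 CPM). THP-1 followed with 0.968, 0.550 and 0.761 CPM, OCI-AML3 had 1, 1 and 0 reads, and HL-60 and NB-4 had 0 reads in all 3 libraries, which allows up to 0.0498 and 0.0515 CPM (3 reads over the group, for counting error only). Of the 10 pairs of neighbours in this order, 6 differed in edgeR's quasi-likelihood test; OCI-AML2 and MOLM-13 (adjusted p = 0.252) and KASUMI-1 and MONO-MAC-6 (adjusted p = 0.307) did not differ beyond their spread, nor did the 3 lines at the foot. All 9 members differed over the 11 lines by the F test, where 99.4% of the 18130 genes tested did.

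**Figure D1:**
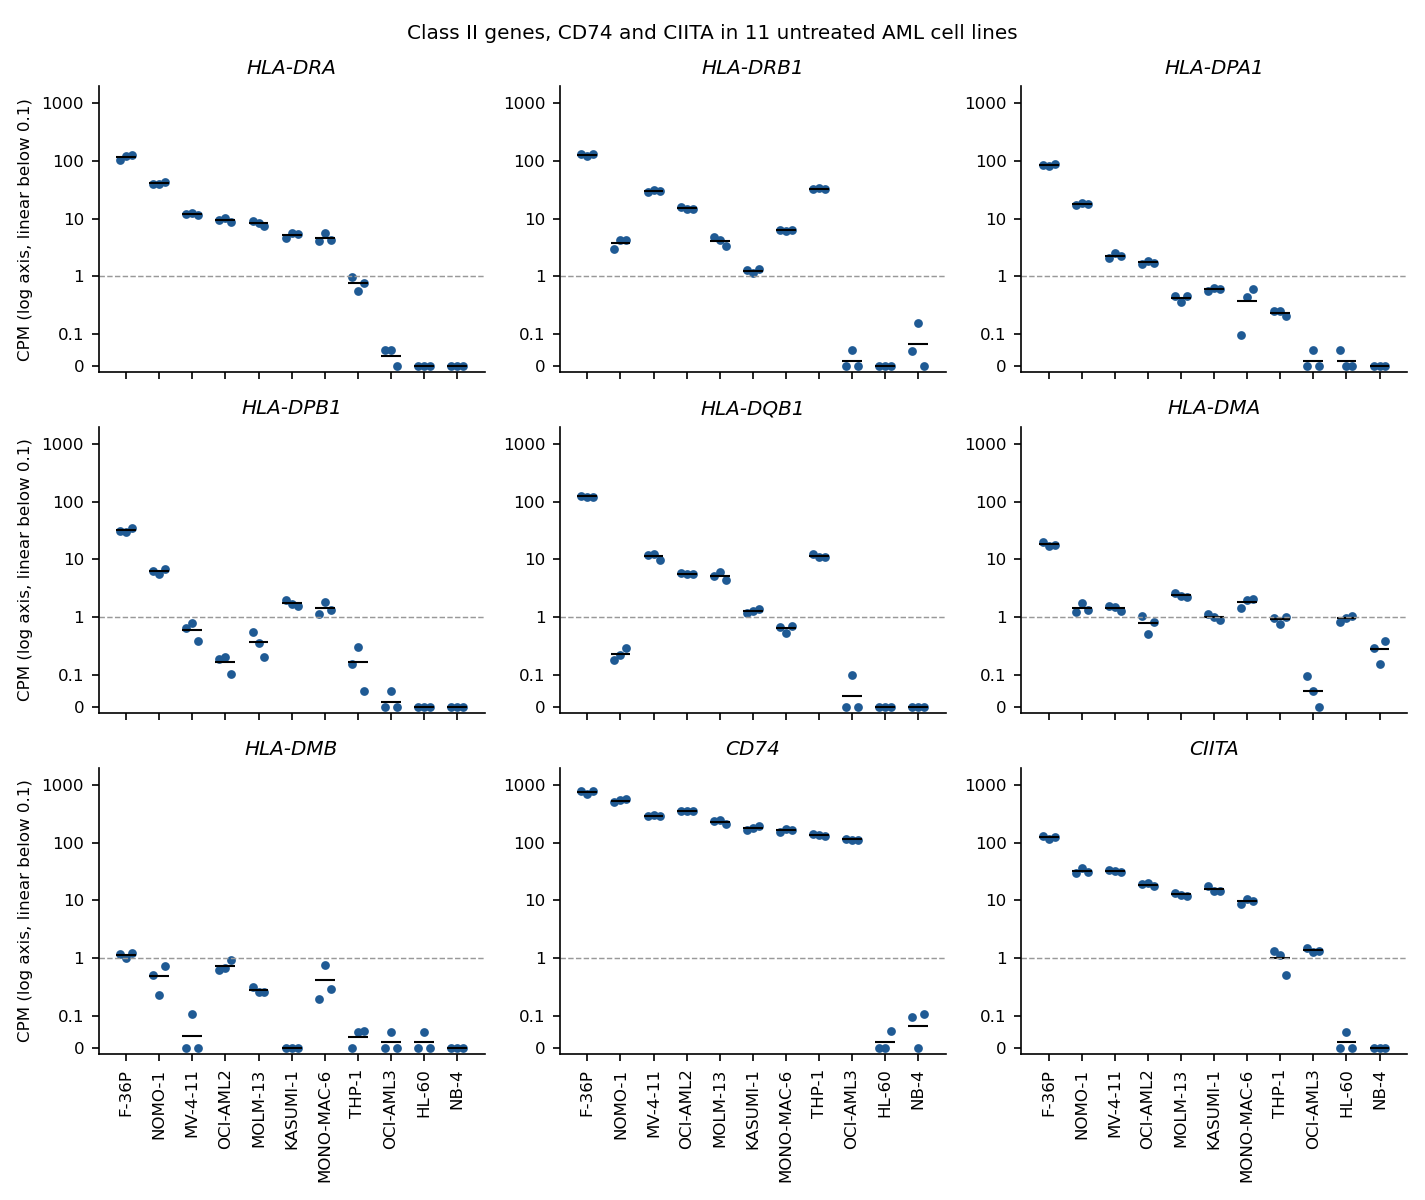
Levels of the 9 genes in untreated cells, in CPM on a log axis that is linear below 0.1. Each point is 1 of 3 libraries, the bar is their mean, the dashed line is 1 CPM, and lines are in the order of HLA-DRA. F-36P is highest in every panel, and HL-60 and NB-4 lie near 0 in all panels but that of HLA-DMA.

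Below a mean of 1 CPM, the level taken here as silent, were 4 lines for HLA-DRA, 3 for HLA-DRB1, 7 each for HLA-DPA1 and HLA-DPB1, 5 for HLA-DQB1, 6 for HLA-DMA, 10 for HLA-DMB, 2 for CD74 and 3 for CIITA. HL-60 and NB-4 lacked nearly the whole route: over 3 libraries, HL-60 had 1 CD74 read and 1 CIITA read, and NB-4 had 4 and 0. HLA-DMA was the exception in HL-60, at 0.949 CPM ± 0.116 (SD, n = 3). OCI-AML3 was silent in another way. It had at most 3 reads for any of the 7 HLA genes over 3 libraries, yet its CD74 stood at 113 CPM ± 1.33 (SD, n = 3) and its CIITA at 1.35 CPM ± 0.0985 (SD, n = 3). In OCI-AML3 the escort chain was thus present in RNA without the chains it escorts.

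The alpha and beta chain genes did not keep 1 order over the lines. THP-1 had 32.5, 33.4 and 33.1 CPM of HLA-DRB1, the DR beta chain, which did not differ from MV-4-11 (29.5, 31.5 and 30.3 CPM, adjusted p = 0.309), although its HLA-DRA was 0.759 CPM against 12.1 CPM. Per kb of exons, the level of HLA-DRB1 was 17.5 times that of HLA-DRA in THP-1 and 0.0378 times that of HLA-DRA in NOMO-1. NOMO-1 was the mirror image, since its HLA-DRA and HLA-DPA1 (the DP alpha chain, 18 CPM ± 0.876, SD, n = 3) came second after F-36P while its HLA-DRB1 was 3.84 CPM ± 0.735 and its HLA-DQB1 0.232 CPM ± 0.0531 (SD, n = 3). In the remaining 6 lines with over 3 reads of HLA-DRA, F-36P included, that per-kb ratio lay between 0.0973 in KASUMI-1 and 1.02 in MV-4-11. The near copy HLA-DRB5 was also high in THP-1, at 12.7 CPM ± 0.810 (SD, n = 3) against 1.13 CPM ± 0.215 in NOMO-1. The part of allele sequence in these ratios was not tested.

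HLA-DQB1, the DQ beta chain, was 10.8 times higher in F-36P (124 CPM ± 2.98, SD, n = 3) than in THP-1 (11.5 CPM ± 0.857), the next line. HLA-DPB1, the DP beta chain, reached 32.1 CPM ± 2.23 in F-36P and 6.21 CPM ± 0.681 in NOMO-1 (SD, n = 3), and was at most 1.73 CPM in the other lines. HLA-DMA was low outside F-36P (18.5 CPM ± 1.43, SD, n = 3): the others ranged from 0.0489 CPM in OCI-AML3 to 2.39 CPM in MOLM-13, and 3 of its 10 neighbouring pairs differed. HLA-DMB, its partner, exceeded a mean of 1 CPM in F-36P alone (1.12 CPM ± 0.128, SD, n = 3). This did not differ from the next line, OCI-AML2 (0.731 CPM, adjusted p = 0.132 in the quasi-likelihood test), and 1 of 10 neighbouring pairs of HLA-DMB differed. CD74 was the member with the highest level per kb of exons in 9 of the 11 lines, at 165 CPM per kb in F-36P and 118 CPM per kb in NOMO-1, against 95.7 and 32.9 CPM per kb for HLA-DRA. Its order over the lines was also the most finely resolved, 8 of 10 neighbouring pairs differing. After F-36P (749 CPM ± 42.3) and NOMO-1 (534 CPM ± 28.9, SD, n = 3) came OCI-AML2 at 353 CPM, MV-4-11 at 293 CPM and MOLM-13 at 229 CPM, and between 178 and 113 CPM stood KASUMI-1, MONO-MAC-6, THP-1 and OCI-AML3.

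CIITA ran close to HLA-DRA over the untreated lines. It measured 132, 114 and 124 CPM in F-36P, 30.2, 35.8 and 30.5 CPM in NOMO-1 and 33.5, 31.9 and 31 CPM in MV-4-11, the latter pair not differing (adjusted p = 1). It then stood at 18.7 CPM in OCI-AML2, 15.7 CPM in KASUMI-1, 12.7 CPM in MOLM-13 and 9.68 CPM in MONO-MAC-6, and at 1.35 CPM in OCI-AML3 and 0.977 CPM in THP-1, in that order. On the log2(CPM + 1) scale, Pearson's r with HLA-DRA over the 11 line means was 0.963 for CIITA, 0.898 for HLA-DPA1, 0.851 for HLA-DPB1, 0.791 for HLA-DMA, 0.744 for CD74, 0.692 for HLA-DRB1 and 0.641 for HLA-DQB1; HLA-DMB lay under the minimum mean of 1 CPM. By Spearman's rho over the same means, CD74 and HLA-DPA1 were nearest (0.989 each), followed by CIITA (0.970) and HLA-DPB1 (0.854), and HLA-DQB1, HLA-DRB1 and HLA-DMA lay between 0.661 and 0.671. Among 13669 genes, median r -0.0089, the other genes most like HLA-DRA included PIP4K2A, RNF144A, PSTPIP2, PIM1, TMEM164, TESK1, FOXA1, PARL and ST8SIA6, from 0.875 down to 0.822. These coefficients describe 11 points, of which F-36P is the extreme for every member, and the points share the libraries and their scaling.

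**Figure D2:**
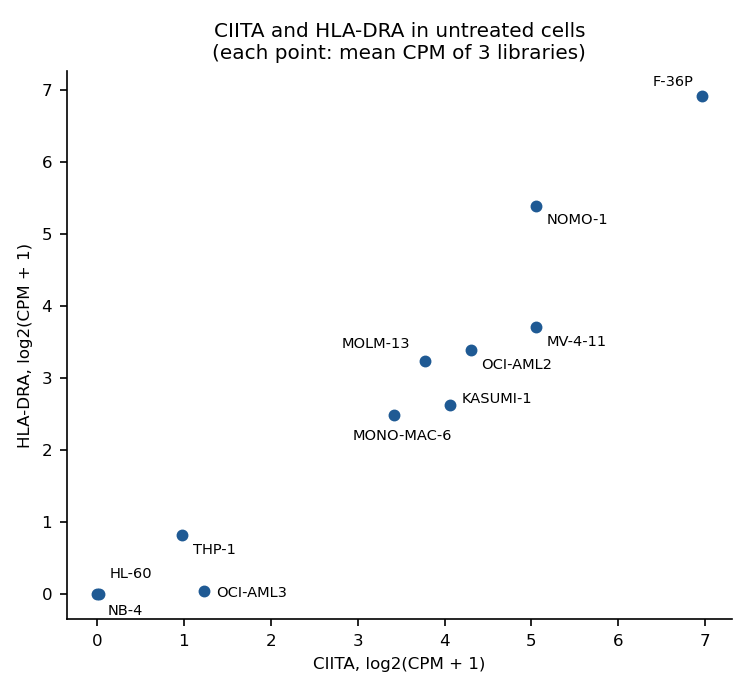
CIITA (x axis) and HLA-DRA (y axis) in the 11 untreated lines, both as log2(CPM + 1) of the mean of 3 libraries. The lines run from HL-60 and NB-4 at the origin to F-36P at the top, and OCI-AML3 and THP-1 lie next to the origin with 1.35 and 0.977 CPM of CIITA.

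After etoposide, the class II genes rose in some lines, and CIITA moved in both directions. A gene was called when the adjusted p (FDR) of edgeR's quasi-likelihood test was below 0.05 and the fold change above 2; the words rose and fell are used for a gene past the FDR at any fold. In MOLM-13 all 9 members were tested and all 9 were called higher, where 8.59% of 13710 genes were called higher and 3.37% lower. THP-1 had 3 of 7 tested members called higher (6.38% of genes higher, 3.46% lower), MV-4-11 had 3 of 8 (12.5% and 2.63%) and NB-4 had 3 of 3 (13.2% and 4.82%), the latter on few reads. KASUMI-1 had 1 of 8 called higher (14.6% and 6.52%) and HL-60 1 of 1 (5.34% and 1.24%), in both cases HLA-DMA. F-36P had 0 of 9 called higher and 1 called lower (24.3% and 6.67%), and NOMO-1 had 0 of 8 higher and 1 lower (8.34% and 4.43%), CIITA in both lines. MONO-MAC-6 (8 tested; 8.53% and 4.47%) and OCI-AML3 (2 tested; 7.18% and 1.36%) had none called, though 4 and 1 of their members passed the FDR below a 2-fold change. Past the FDR at any fold over the 10 lines other than OCI-AML2 were 44 of 63 tested pairs of member and line as higher and 5 as lower, beside 27.7% and 24.4% of the pairs of all genes. Members left out of a test had too few reads for the filter. Of the 63 tested pairs, 10 passed the filter only with the etoposide-treated libraries, so these favour higher calls: HLA-DPA1, HLA-DPB1 and HLA-DMB in MOLM-13, HLA-DPB1 in MV-4-11, HLA-DPA1 in THP-1 and MONO-MAC-6, HLA-DMB in NOMO-1 and all 3 in NB-4. Among the other 53 pairs, 12 were called higher and 2 lower, with 6 of 6 called higher in MOLM-13, 2 of 7 in MV-4-11 and 2 of 6 in THP-1. Past the FDR at any fold, 36 of these 53 pairs were higher and 5 lower.

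**Figure D3:**
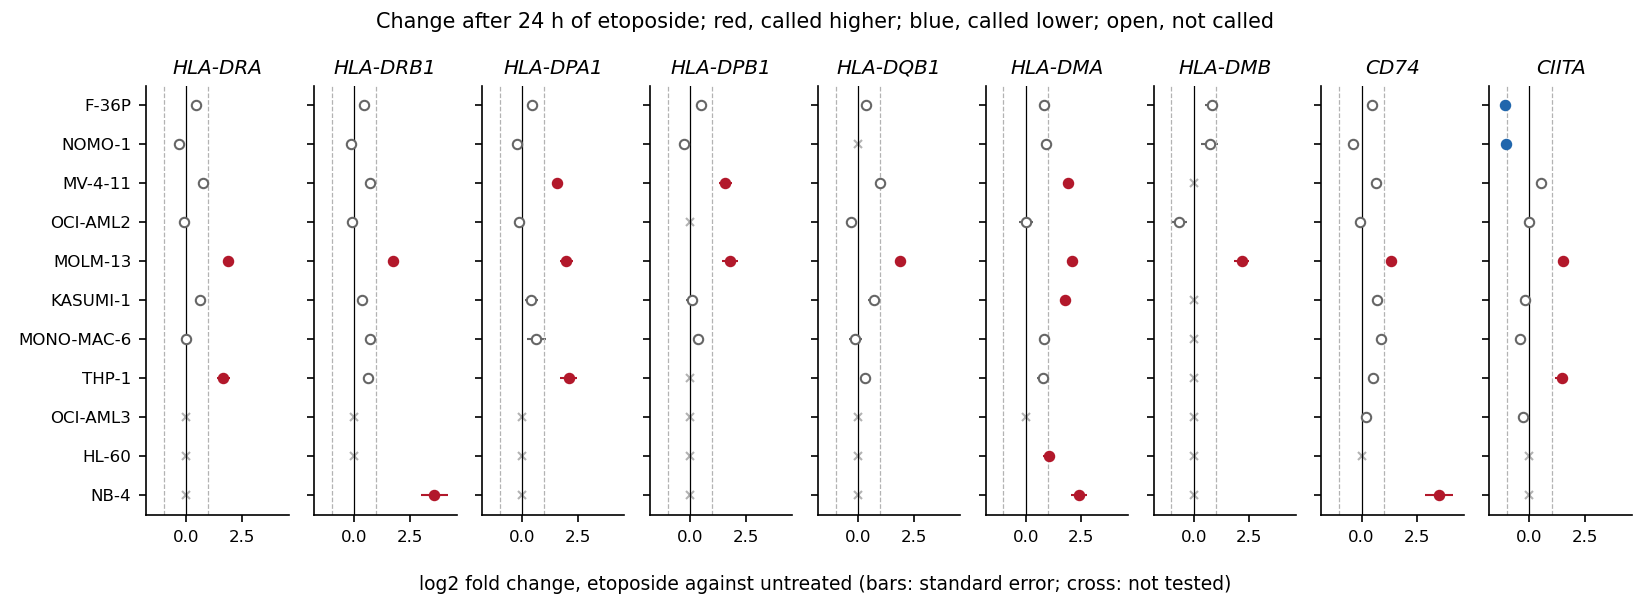
Log2 fold change after etoposide (x axis) of each gene in the 11 lines, ordered by untreated HLA-DRA, with a standard error worked back from the fold change and the F of its test. Filled points were called (red higher, blue lower), open points were not, crosses were not tested, and dashed lines mark a 2-fold change. All 9 points of MOLM-13 are red, and the 2 blue points are CIITA in F-36P and NOMO-1.

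MOLM-13 was the line in which every member rose, where 28.1% of genes passed the FDR as higher and 28.1% as lower. HLA-DRA measured 8.89, 8.21 and 7.21 CPM in the untreated and 33.5, 30.9 and 24.1 CPM in the etoposide-treated libraries, a log2 change of 1.86 (SE 0.14, adjusted p = 4e-06). CIITA measured 13, 12.1 and 11.5 CPM in the untreated and 38.2, 35.1 and 30.4 CPM in the etoposide-treated libraries, a log2 change of 1.51 (SE 0.11, adjusted p = 2.97e-06). In neither gene did the groups overlap, and the same held for the other 7 members. The share of all genes without overlap was not counted in this line or the others. CD74 rose from 219.9 CPM ± 19.1 (SD, n = 3) to 548 CPM ± 36.7 (SD, n = 3), with a smaller log2 change of 1.32 (SE 0.081, adjusted p = 1.67e-06). HLA-DQB1 rose from 5.04 CPM ± 0.748 (SD, n = 3) to 18.7 CPM ± 2.21 (SD, n = 3) and HLA-DRB1 from 4.0 CPM ± 0.712 (SD, n = 3) to 13.3 CPM ± 2.23 (SD, n = 3). HLA-DPA1, HLA-DPB1 and HLA-DMB started near the detection limit, HLA-DPA1 with 9, 7 and 9 reads in the untreated and 24, 33 and 38 reads in the etoposide-treated libraries and HLA-DMB with 6, 5 and 5 reads in the untreated and 27, 20 and 21 reads in the etoposide-treated libraries. For HLA-DPA1 and HLA-DMB the ratios of reads, scaled to library size, were 4.04 (95% exact binomial interval 2.58 to 6.55) and 4.51 (2.59 to 8.34). The median change of the 9 members was 1.86 on the log2 scale, beside -0.0035 over all genes tested in this line. In the other lines with at least 7 members tested, that median ran from -0.25 in NOMO-1 to 0.89 in MV-4-11, and over all genes from -0.034 to 0.086.

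Markers of other cell types moved in the same libraries. The 6 monocyte markers summed to 1462 to 2296 CPM in the untreated and 4965 to 5981 CPM in the etoposide-treated libraries, with 3 of 4 tested called higher. The 4 dendritic cell markers, cells that express class II at high levels, summed to 0.593 to 0.780 CPM in the untreated and 3.77 to 4.82 CPM in the etoposide-treated libraries, with CLEC9A at 0 reads throughout. The 5 B cell markers summed to 0.884 to 1.32 CPM in the untreated and 2.21 to 2.77 CPM in the etoposide-treated libraries, with MS4A1 at 0 reads. The part of these marker genes in the class II increase was not tested.

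MV-4-11 and THP-1 showed partial increases. In MV-4-11 all 8 tested members passed the FDR as higher, where 33.5% of genes did and 30.4% were lower, and the DP chains and HLA-DMA exceeded 2-fold. HLA-DPA1 measured 2.26, 2.68 and 2.40 CPM in the untreated and 7.17, 8.61 and 6.10 CPM in the etoposide-treated libraries, a log2 change of 1.58 (SE 0.17, adjusted p = 3.71e-08), and HLA-DPB1 had a log2 fold change of 1.59 (adjusted p = 4.31e-05). HLA-DQB1 stopped just short of 2-fold at 0.99 (adjusted p = 3.55e-08), and CIITA rose from 34.4 CPM ± 1.22 (SD, n = 3) to 48.6 CPM ± 0.628 (SD, n = 3), a log2 change of 0.50 (SE 0.067, adjusted p = 1.17e-06). Monocyte and dendritic cell markers moved here too, the former summing to 358 to 457 CPM in the untreated and 1017 to 1318 CPM in the etoposide-treated libraries and the latter to 1.56 to 1.84 CPM in the untreated and 10.2 to 10.6 CPM in the etoposide-treated libraries with CLEC9A at 0 reads; their part was not tested. Of the markers that passed the filter on low counts in the untreated libraries alone, 2 of 4 monocyte, 1 of 1 dendritic cell and 1 of 1 B cell markers were called higher.

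In THP-1, HLA-DRA, HLA-DPA1 and CIITA were called higher, and 6 of 7 members passed the FDR as higher beside 16.1% of genes (16% lower). HLA-DRA measured 0.995, 0.567 and 0.779 CPM in the untreated and 2.31, 2.56 and 2.64 CPM in the etoposide-treated libraries, a log2 change of 1.68 (SE 0.27, adjusted p = 0.000148). CIITA measured 1.36, 1.13 and 0.519 CPM in the untreated and 2.22, 3.35 and 2.64 CPM in the etoposide-treated libraries, a log2 change of 1.44 (SE 0.30, adjusted p = 0.00142), and HLA-DPA1 went from 14 reads to 69 over 3 libraries each. HLA-DRB1, already abundant, rose from 33.9 CPM ± 0.551 (SD, n = 3) to 52.4 CPM ± 4.91 (SD, n = 3), a log2 change of 0.63 (SE 0.13, adjusted p = 0.00109), and HLA-DQB1 did not pass the test (0.31, adjusted p = 0.105). In THP-1 2 of 6 monocyte markers were called higher, the 6 summing to 669 to 739 CPM in the untreated and 1155 to 1265 CPM in the etoposide-treated libraries. The 4 dendritic cell markers summed to 1.35 to 2.04 CPM in the untreated and 3.45 to 4.16 CPM in the etoposide-treated libraries, with 1 of 2 tested called higher, and the 6 myeloid markers to 957 to 1208 CPM in the untreated and 616 to 986 CPM in the etoposide-treated libraries, with 1 called lower. The part of these markers was not tested. In MONO-MAC-6, the next line up in HLA-DRA, that gene did not pass the test (0.011, adjusted p = 0.949).

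In F-36P, NOMO-1 and MONO-MAC-6 the coactivator fell. CIITA in F-36P measured 134, 121 and 136 CPM in the untreated and 51.4, 55.6 and 74.4 CPM in the etoposide-treated libraries, a log2 change of -1.11 (SE 0.15, adjusted p = 0.000136). In NOMO-1 it measured 33.8, 39.8 and 34.2 CPM in the untreated and 20.2, 16.6 and 14.5 CPM in the etoposide-treated libraries, a log2 change of -1.07 (SE 0.13, adjusted p = 2.72e-05). In MONO-MAC-6 it measured 9.03, 11 and 10.2 CPM in the untreated and 7.94, 8.65 and 6.03 CPM in the etoposide-treated libraries, a log2 change of -0.42 (SE 0.13, adjusted p = 0.0164), which was under 2-fold and missed the FDR with scaling by library size alone (adjusted p = 0.0682). All etoposide-treated libraries lay below all untreated ones in these 3 lines, though the share of all genes for which this held was not counted.

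The class II genes did not follow CIITA down in F-36P. All 8 other members passed the FDR there as higher, where 35% of genes did and 25% were lower, with log2 fold changes from 0.38 for HLA-DQB1 to 0.83 for HLA-DMA. HLA-DRA measured 107, 130.5 and 142 CPM in the untreated and 164, 153 and 195 CPM in the etoposide-treated libraries, and the groups did not overlap (log2 fold change 0.43, adjusted p = 0.0215). CD74 rose from 793 CPM ± 52.7 (SD, n = 3) to 1096 CPM ± 198 (SD, n = 3). Scaling by library size alone, which moved the median of all genes in this line by 0.25 (log2), kept these directions but left CIITA at -0.86, under 2-fold. In the same libraries 2 of 5 erythroid markers were called lower, the 5 summing to 1066 to 1189 CPM in the untreated and 639 to 663 CPM in the etoposide-treated libraries, and 3 of 5 tested monocyte markers were called higher (CSF1R and FCGR1A having passed the filter only with the treated libraries), the 6 summing to 186 to 196 CPM in the untreated and 310.4 to 348 CPM in the etoposide-treated libraries; their part was not tested.

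In NOMO-1 part of the route fell with CIITA. CD74 fell from 597 CPM ± 32.9 (SD, n = 3) to 454 CPM ± 35.7 (SD, n = 3), a log2 change of -0.40 (SE 0.085, adjusted p = 0.00189), and HLA-DRA measured 44.5, 44.8 and 47.9 CPM in the untreated and 38.3, 33.4 and 38.5 CPM in the etoposide-treated libraries, a log2 change of -0.32 (SE 0.093, adjusted p = 0.0131). HLA-DRB1, HLA-DPA1, HLA-DPB1 and HLA-DMB did not pass the test (log2 fold changes of -0.12, -0.22, -0.28 and 0.72), while HLA-DMA rose by 0.92 (adjusted p = 0.00256). Of the 8 members tested, 3 thus passed the FDR as lower and 1 as higher, beside 23.9% and 28.8% of genes. The call on CIITA as more than 2-fold lower was lost without untreated replicate 2 (-0.99) or etoposide replicate 3 (-0.98). In the same libraries the 6 myeloid markers summed to 2177 to 2506 CPM in the untreated and 520.2 to 793 CPM in the etoposide-treated libraries, and their part was not tested. With ELANE at 0 reads, 2 of the 5 myeloid markers tested were called lower. In MONO-MAC-6, HLA-DRB1 (0.71), HLA-DMA (0.83) and CD74 (0.89) passed the FDR as higher beside the lower CIITA, where 31.8% of genes were higher and 30.5% lower. The 6 monocyte markers there summed to 4111 to 4477 CPM in the untreated and 3412 to 3809 CPM in the etoposide-treated libraries, with 3 of 5 tested called higher and 1 lower. The 6 myeloid markers summed to 502 to 681 CPM in the untreated and 467 to 542 CPM in the etoposide-treated libraries, with 2 called lower, and the 5 B cell markers to 3.67 to 5.62 CPM in the untreated and 11.4 to 11.9 CPM in the etoposide-treated libraries, with 1 of 3 tested called higher. The part of these markers was not tested.

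**Figure D4:**
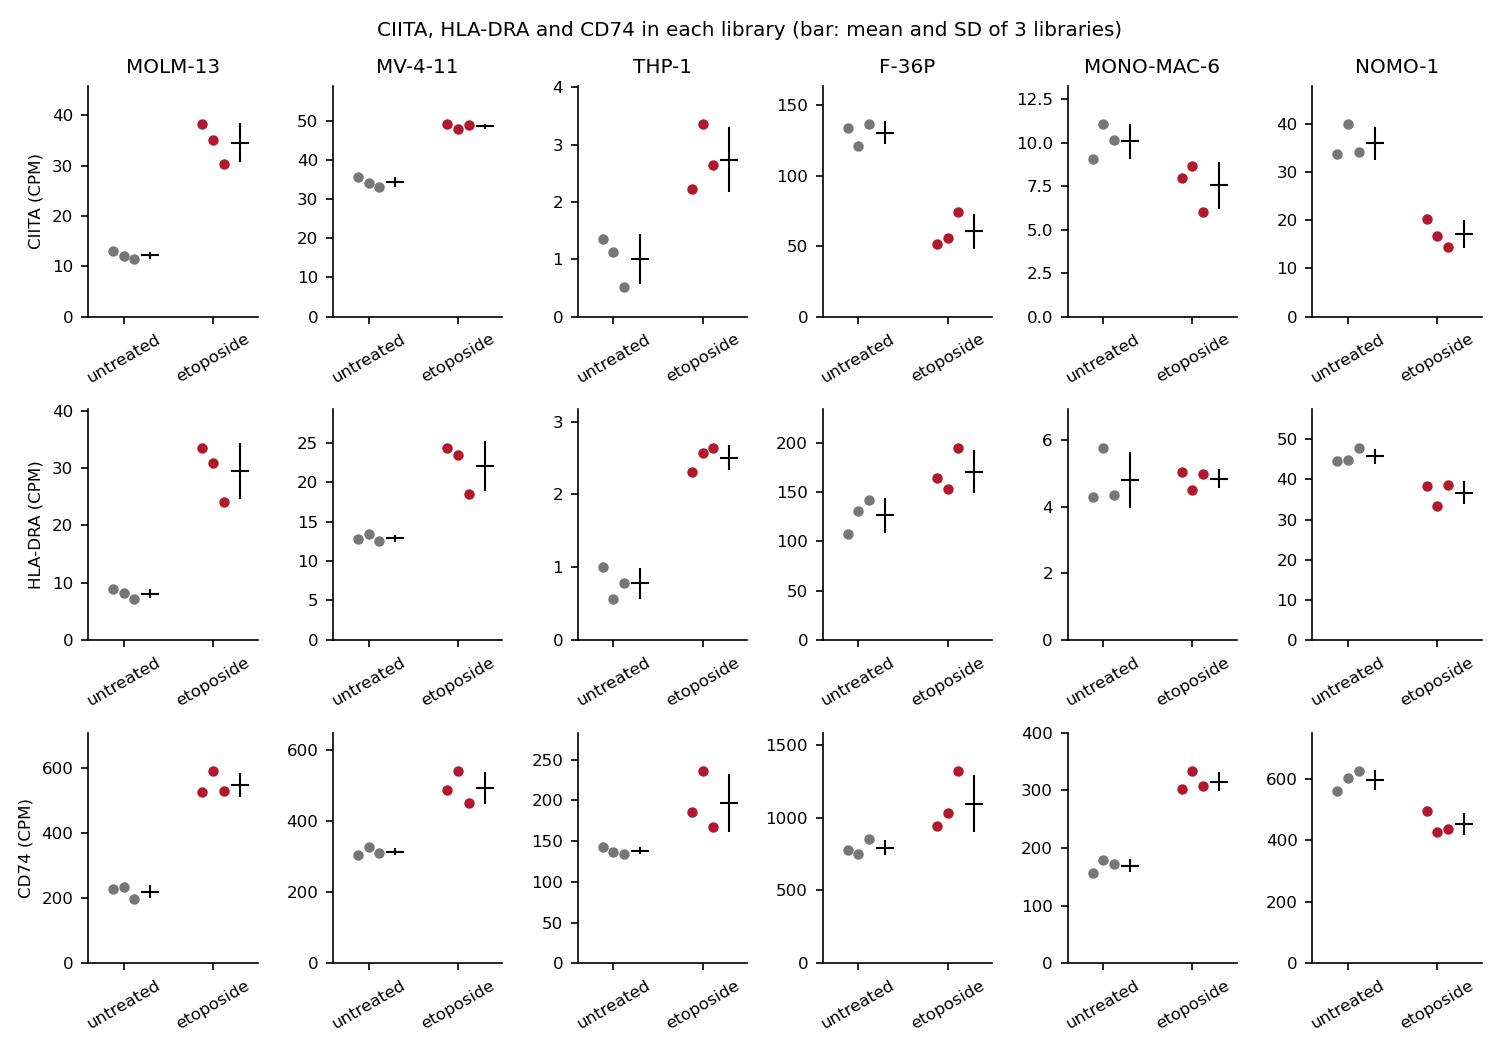
CIITA, HLA-DRA and CD74 (rows, in CPM, each panel with its own axis from 0) in every untreated (grey) and etoposide-treated (red) library of 6 lines (columns), with the mean and SD of 3 libraries. CIITA is higher after etoposide in the 3 lines on the left and lower in the 3 on the right, whereas CD74 is lower in NOMO-1 alone.

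The difference between lines was tested in 1 fit of the 60 libraries of 10 lines. Of the 9 members, 8 differed in their etoposide change between lines, where 74.5% of 19974 genes did, and HLA-DMB did not pass (adjusted p = 0.103). The adjusted p was smallest for CIITA (5.62e-17). Groups with 0 reads entered this test for all members but HLA-DMA and CD74, with 4 such groups for HLA-DRA and 2 for CIITA. Directly compared, the change of CIITA was lower in F-36P than in MOLM-13 by a log2 difference of -2.63 (SE 0.19, adjusted p = 4.45e-16), and in NOMO-1 than in MOLM-13 by -2.66 (SE 0.20, adjusted p = 3.21e-15). Against MV-4-11 the differences were -1.61 (SE 0.18, adjusted p = 6.36e-10) and -1.64 (SE 0.19, adjusted p = 1.78e-09). The change of HLA-DRA did not pass this test between F-36P and MV-4-11, with a difference of -0.34 (SE 0.18, adjusted p = 0.158), whereas it did between NOMO-1 and MV-4-11, with one of -1.16 (SE 0.18, adjusted p = 2.68e-06). Past the FDR in these 4 pairs were 8, 7, 5 and 7 of the 9 members, in the order F-36P and NOMO-1 against MOLM-13, then F-36P and NOMO-1 against MV-4-11, beside 37.5%, 31.3%, 31.5% and 25.9% of all genes. The 4 pairs were chosen after the changes within lines had been seen.

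HLA-DMA was the member whose direction was shared. Of the 10 lines other than OCI-AML2 it was tested in 9 and passed the FDR as higher in all 9, with log2 fold changes from 0.77 in THP-1 to 2.40 in NB-4, where it passed the filter only with the treated libraries. In KASUMI-1 it measured 1.12, 0.998 and 0.877 CPM in the untreated and 3.76, 3.95 and 2.53 CPM in the etoposide-treated libraries, and in HL-60 0.887, 1.03 and 1.13 CPM in the untreated and 2.08, 2.63 and 1.56 CPM in the etoposide-treated libraries. The call in HL-60 was lost without untreated replicate 1 (0.95) or etoposide replicate 2 (0.85). In OCI-AML3, where it was not tested, it had 2, 1 and 0 reads in the untreated and 10, 10 and 12 reads in the etoposide-treated libraries, a scaled ratio of 9.95 (95% exact binomial interval 3.11 to 50.8). Every etoposide-treated library thus lay above every untreated one in all 10 lines, though the share of all genes for which this held was not counted. Its mean change over the 10 lines was 1.60 (SE 0.085, adjusted p = 2.27e-23), and 7.97% of 19974 genes had a mean change called higher. Lines were taken as fixed, so the SE and p of this mean measure the spread between libraries, not between lines. This mean gives OCI-AML3, with 3 reads before etoposide, and NB-4, with 16, the same weight as the other lines. The median over the 9 lines tested was 1.03. The comparisons with the other 9 lines that follow carry the same weights. Against the mean of the other 9 lines, the change of HLA-DMA was higher in MOLM-13 by 0.61 (adjusted p = 0.0344). It was lower in F-36P (-0.80, adjusted p = 0.000112), MONO-MAC-6 (-0.85, adjusted p = 0.00399), NOMO-1 (-0.79, adjusted p = 0.00841) and THP-1 (-0.87, adjusted p = 0.0137).

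**Figure D5:**
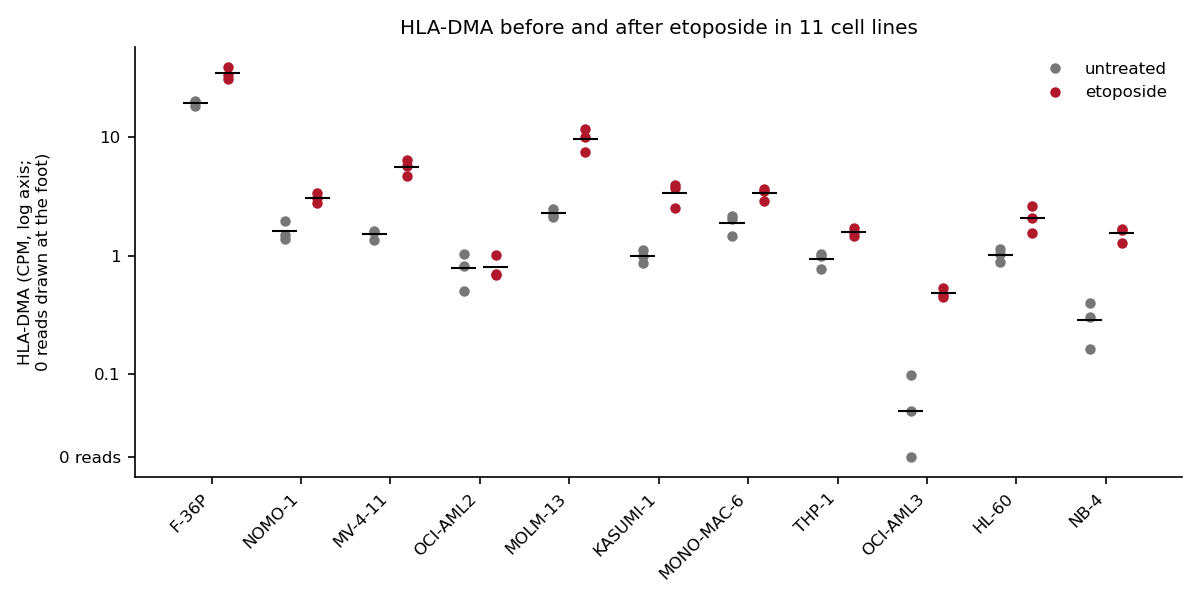
HLA-DMA in each untreated (grey) and etoposide-treated (red) library of the 11 lines, in CPM on a log axis with libraries without reads at the foot; bars are means of 3. Red lies above grey in every line but OCI-AML2.

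CD74 also had a mean change over the 10 lines, of 0.93 (SE 0.18, adjusted p = 1.13e-05), under 2-fold. Here too the SE and p of the mean do not measure the spread between lines. This mean gives HL-60, with 1 read before and 3 after etoposide, the same weight as the other lines, as it does NB-4, where a log2 change of 3.47 rests on 4 reads before etoposide. The median over the 9 lines tested was 0.65. Leaving out 1 replicate number at a time gave means from 0.85 to 1.13, the latter without replicate 3 and past 2-fold. CD74 rose past the FDR in 8 lines and fell in NOMO-1, where its change differed from the mean of the other 9 lines by -1.50 (adjusted p = 2.13e-06). It was below them in OCI-AML3 as well (-0.81, adjusted p = 0.00425) and above them in NB-4 (2.87, adjusted p = 0.000642). No mean is given for the remaining 7 members, since each has a group with 0 reads.

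The lines without class II RNA stayed low in absolute terms. Past the FDR were 31% of genes as higher and 28.7% as lower in NB-4, 17.5% and 15% in HL-60, and 22.4% and 17.7% in OCI-AML3, against 3 of 3, 1 of 1 and 1 of 2 tested members as higher. All 3 in NB-4 passed the filter only with the treated libraries, which favours higher calls, so their number cannot be weighed against that share. In NB-4, HLA-DRB1 had 1, 3 and 0 reads in the untreated and 26, 14 and 23 reads in the etoposide-treated libraries, a scaled ratio of 13.2 (95% exact binomial interval 4.89 to 49.8), and CD74 had 2, 0 and 2 reads in the untreated and 11, 19 and 27 reads in the etoposide-treated libraries. Both were called higher, and both reached a mean below 1 CPM. CIITA in NB-4 had 0, 0 and 0 reads in the untreated and 3, 2 and 2 reads in the etoposide-treated libraries, and HLA-DRA, the partner of HLA-DRB1, had 0 reads in all 6 libraries. In HL-60, HLA-DRA, HLA-DRB1, HLA-DPB1 and HLA-DQB1 had 0 reads before and after etoposide and CIITA had 1 read before and 0 after, so no change was detectable at this depth. In OCI-AML3, CD74 rose from 114 CPM ± 2.06 (SD, n = 3) to 133 CPM ± 11.5 (SD, n = 3), a log2 change of 0.22 (SE 0.075, adjusted p = 0.0482) that missed the FDR under RLE scaling (adjusted p = 0.0821). CIITA in OCI-AML3 did not pass the test (-0.30, adjusted p = 0.29), and HLA-DRA had 2 reads before and 4 after.

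KASUMI-1 had 4 members past the FDR as higher, beside 31.5% of genes (28.6% lower): HLA-DMA, CD74 (0.67, adjusted p = 0.0003), HLA-DRA (0.64, adjusted p = 0.00559) and HLA-DQB1 (0.72, adjusted p = 0.0404). Its CIITA did not pass (-0.21, adjusted p = 0.161). In the same libraries the 6 monocyte markers summed to 83 to 91.3 CPM in the untreated and 473 to 514 CPM in the etoposide-treated libraries, with 4 of 4 tested called higher, ITGAM among them having passed the filter only with the treated libraries. The 6 myeloid markers summed to 26637 to 30308 CPM in the untreated and 13209 to 15052 CPM in the etoposide-treated libraries, with 2 called lower. The part of these markers was not tested. In OCI-AML2, 0 of 8 tested members passed the FDR with edgeR's quasi-likelihood test, where 0.0221% of genes passed it as higher and 0% as lower, and 456 of 13604 genes had an unadjusted p under 0.05. HLA-DRA there measured 9.44, 10.1 and 8.87 CPM in the untreated and 9.24, 8.64 and 9.11 CPM in the etoposide-treated libraries, and CIITA 18.9, 19.8 and 17.4 CPM in the untreated and 17.9, 18.4 and 19 CPM in the etoposide-treated libraries.

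The remaining genes of the route were taken from fixed lists and counted over the 10 lines as pairs of gene and line. Over all genes tested, 11.1% of such pairs were called higher and 3.96% lower, and the members were called higher in 20 and lower in 2 of 63 tested pairs. Among the 53 member pairs that passed the filter in the untreated libraries alone, 12 were called higher and 2 lower. The share of all genes among pairs of that kind was not counted. The promoter complex that recruits CIITA (RFX5, RFXAP, RFXANK, NFYA, NFYB, NFYC and CREB1) was called in 0 of 70 tested pairs; 11 pairs passed the FDR as higher and 19 as lower, within log2 fold changes of -0.89 and 0.73. Its members were expressed in every untreated line, HL-60 and NB-4 included, where RFX5 stood at 126 and 114 CPM. Of the genes upstream of CIITA, 4 of 88 tested pairs were called higher and 1 lower. IRF1, an activator of CIITA, was called higher in F-36P (1.36) and THP-1 (1.30). IRF8 was called higher in NB-4 and lower in MONO-MAC-6 (-1.29). PRDM1, a repressor of CIITA, was called higher in all 10 lines, by 1.08 in MV-4-11 to 3.31 in F-36P, where it passed the filter only with the treated libraries. In MOLM-13 the change of PRDM1 was 1.13. The part of IRF1, IRF8 and PRDM1 in the changes of CIITA was not tested.

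MARCHF1, a ubiquitin ligase that removes class II from the surface, was tested in 4 lines, in F-36P, MOLM-13 and THP-1 only because of the treated libraries, and had 0, 1 and 0 reads in the untreated and 31, 16 and 16 reads in the etoposide-treated libraries in F-36P. Of the other class II genes, HLA-DQA1, the DQ alpha chain, passed the filter in the untreated libraries of F-36P alone, where it was called higher (1.03); in MOLM-13 and NOMO-1 it was tested only because of the treated libraries, with 2, 3 and 3 reads in the untreated and 25, 23 and 22 reads in the etoposide-treated libraries in MOLM-13. HLA-DRB5 was called higher in MOLM-13 (1.57) and MV-4-11 (1.11). HLA-DQA2, HLA-DQB2, HLA-DOA and HLA-DOB had too few reads for a test in any of the 10 lines. Pairs that pass the filter only with the treated libraries favour higher calls, so the counts that follow are of pairs that passed in the untreated libraries alone. Endosomal processing genes (cathepsins, LGMN and IFI30) were called higher in 7 of 47 such pairs and lower in 1. The costimulatory genes CD80, CD86 and CD40, which a T cell reads beside class II, were called higher in 11 of 13; a further 11 tested pairs passed the filter only with the treated libraries. CD86 was among the former in 6 lines and called higher in all 6, from 1.49 in MOLM-13 to 3.45 in MV-4-11. In F-36P, where CIITA fell, CD80 (2.0) and CD40 (2.33) were called higher. The median change over these pairs was 0.63 for the members, -0.10 for the promoter complex, 0.26 upstream of CIITA, 0.53 for endosomal processing and 2.0 for costimulation, where the median of all genes lay between -0.034 and 0.086 per line. Among the marker lists, counted the same way, monocyte markers were called higher in 21 of 41 and lower in 2 pairs, B cell markers higher in 7 of 20 and lower in 1, T cell markers higher in 1 of 5, erythroid markers higher in 1 of 18 and lower in 3, and myeloid markers higher in 0 of 53 and lower in 13. Of the 11 tested pairs of dendritic cell markers, 9 passed the filter only with the treated libraries.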

How the data were processed

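The authors deposited 1 table of raw read counts per library, from STAR 2.5.3a on GRCh38.p7 with gencode release 25 after FastQC 0.11.5, and tested them with edgeR 3.20.1; which strand column the counts come from is not given in the sources used here. The library kit kept strand. The deposited counts of all 66 libraries were used, 57992 identifiers after removing 45 Y copies without reads, of which gencode release 44 named 56948. Replicates of a group all differed by more than sampling noise (lowest chi-square per degree of freedom 2.05).

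Each line was fitted alone with edgeR 4.0.16 in R 4.3.3 (filterByExpr with at least 10 reads and 15 in total, TMM, quasi-likelihood test, Benjamini-Hochberg over all genes tested). Untreated levels were fitted over 33 libraries, and differences between lines over 60, without OCI-AML2. Each SE of a log2 change is approximate: the absolute change divided by the square root of the F of its test. Named genes were the 9 members, the listed genes of the route and the 10 genes most like HLA-DRA by Pearson's r. Likeness used log2(CPM + 1) where the mean over untreated libraries reached 1 CPM. Some listed or named genes are not reported here. The members and lists were chosen with earlier results of these data known. Exact binomial intervals and limits of 3 reads cover counting error only. Replicate numbers paired the samples in NB-4, MOLM-13, OCI-AML2 and MONO-MAC-6, where the lowest correlation of same-numbered deviations was 0.241, 0.220, 0.202 and 0.111; it was not above 0.1 in the other lines. On simulated data with 200 genes changed 4-fold, the MOLM-13 fit recovered 195 with 2 false calls among 13546 genes, the fit of differences between 10 lines recovered 177 with 6 false calls among 4000, and the untreated fit recovered 200 with 9 among 4000. The simulations gave all genes the same dispersion and each unchanged gene the same share of reads in every library. Groups with 0 reads, as some members had, were not built in, so these rates do not carry over to such members. Alternatives were DESeq2 1.42.0, edgeR's exact test, other scaling, filters, fold limits, a replicate block and 1 fit of 66 libraries. Each library was also left out in the fits within lines, and each replicate number in the fits over lines. Figures were drawn with matplotlib 3.10.9.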

Additional observations from a re-analysis of the deposited data

Results flagged for a closer look

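The values given here were singled out because the etoposide change of a member differed between lines in a test of the difference itself, in the fit of 60 libraries of 10 lines. The overall test gave adjusted p = 5.47e-12 for HLA-DRA, 6.71e-09 for HLA-DRB1, 9.52e-10 for HLA-DPA1, 5.01e-05 for HLA-DPB1, 3.41e-08 for HLA-DQB1, 1.38e-07 for HLA-DMA, 9.46e-13 for CD74 and 5.62e-17 for CIITA (edgeR's quasi-likelihood F test). For all of these but HLA-DMA and CD74, groups with 0 reads entered the test.

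Set against the mean change of the other 9 lines, HLA-DMA differed in MOLM-13 by 0.61 on the log2 scale, in F-36P by -0.80, in MONO-MAC-6 by -0.85, in NOMO-1 by -0.79 and in THP-1 by -0.87. CD74 differed in NB-4 by 2.87, in NOMO-1 by -1.50 and in OCI-AML3 by -0.81. The value for NB-4 rests on 4 reads before and 57 after etoposide. The values for HLA-DMA rest in part on OCI-AML3, where it had 3 reads before etoposide. For CIITA the difference in change was -2.63 between F-36P and MOLM-13, -2.66 between NOMO-1 and MOLM-13, -1.61 between F-36P and MV-4-11 and -1.64 between NOMO-1 and MV-4-11. No group had 4 or more libraries, so single libraries could not be compared with their group in this way.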

How the results depend on the processing

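Of 316 recomputed values of the 22 calls on single members, 310 stayed past the FDR and 2-fold and 6 did not, and none reversed. The 6 were CIITA in F-36P with library size alone (-0.86) or a mean of at least 5 CPM (-0.95), CIITA in NOMO-1 without untreated replicate 2 (-0.99) or etoposide replicate 3 (-0.98), and HLA-DMA in HL-60 without untreated replicate 1 (0.95) or etoposide replicate 2 (0.85). Without a fold minimum, the members called higher numbered 8 in F-36P, 4 in KASUMI-1, 3 in MONO-MAC-6, 8 in MV-4-11, 1 in NOMO-1, 1 in OCI-AML3 and 6 in THP-1, and those called lower 1 in MONO-MAC-6 and 3 in NOMO-1. With library size alone, 2 were called higher and 0 lower in F-36P and 1 higher in MONO-MAC-6; this scaling moved the median of all genes by 0.25 in F-36P, 0.21 in NB-4, 0.17 in KASUMI-1, 0.13 in MV-4-11, 0.12 in MONO-MAC-6 and 0.10 in HL-60 (log2). Under it CIITA in MONO-MAC-6 missed the FDR (adjusted p = 0.0682). With a mean of 5 CPM or more required, which leaves fewer members tested, 0 were called higher in HL-60, KASUMI-1, NB-4 and THP-1, 1 in MV-4-11, and 0 lower in F-36P. With no filter beyond 1 read, 1 was called higher in OCI-AML3. In 1 fit of 66 libraries, 5 were called higher in MV-4-11, 5 in NB-4, 1 in NOMO-1 and 1 in OCI-AML3; the cause was not tested. Leaving out 1 library at a time, the members called higher ranged from 0 to 1 in F-36P, HL-60, NOMO-1 and OCI-AML3. They ranged from 3 to 4 in MV-4-11, and those called lower ranged from 0 to 1 in NOMO-1. Without 1 replicate number at a time, the mean change over 10 lines ran from 1.57 to 1.63 for HLA-DMA. For CD74 it ran from 0.85 to 1.13. The replicate block changed no call on a member and no count of members. A limit of 0.1 CPM in place of 1 CPM left 26 silent pairs of member and line in place of 47. Of the 10 genes most like HLA-DRA, 6 were shared with a pseudocount of 0.25 CPM, 3 with Spearman's rho and 6 to 9 without 1 replicate. Depth limits the silent lines, where a mean below about 0.05 CPM cannot be told from 0.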
